A study of Mus musculus with 24 samples.

Results

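The interaction of p27 and stathmin loss was examined in the thymus, that is, whether losing both proteins changed RNA levels by more or less than the sum of losing each alone. All 24 of the 24 arrays of the series entered, 6 mice of each of 4 genotypes. The genotypes were wild type, p27 knock-out (lacking p27Kip1, encoded by Cdkn1b), stathmin knock-out (lacking stathmin, encoded by Stmn1) and the double knock-out lacking both. All mice were C57BL/6 and 15 weeks old, with 3 females and 3 males per genotype, and the labels do not give the sex of each mouse. The sources used here do not give which parts of the genes were deleted or whether controls were littermates. Each array carried 1 thymus in the Cy5 channel and a shared pool of RNA from mouse fibroblasts of all genotypes in the Cy3 channel, so a level is given as the log2 ratio of thymus to fibroblast pool. The series title names the control of cell proliferation in the animal as the question.

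p27 binds cyclin-dependent kinases, above all those paired with cyclin E, and holds cells before DNA replication. Stathmin binds tubulin dimers and destabilises microtubules, and p27 is known to bind stathmin and limit that activity. Mice without p27 are larger and have enlarged, hyperplastic organs, the thymus among them. The thymus is made up mainly of developing T cells, the double-positive thymocytes, supported by cortical and medullary epithelium.

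The interaction was the difference between double and p27 knock-out minus the difference between stathmin knock-out and wild type, on the log2 scale. A value of 0 means that the effects of both losses add up, a value above 0 that the double knock-out was higher than the sum predicts, and a value below 0 that it was lower. The arrays lay on 6 slides with 1 array of each genotype, so each slide also gave an interaction of its own. Every genotype kept the same position on the slides, and position and genotype cannot be told apart. In tissue RNA, fewer cells of a type and less RNA per cell cannot be told apart either. The p values measure the spread between arrays, and with 1 array per mouse, differences between mice and between hybridizations cannot be separated.

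The p27 knock-out arrays were dimmer on average than the others. The 99th percentile of Cy5 intensity was 86.4 ± 53.2 kilo-units in the p27 knock-out (SD, n = 6), 191 ± 92.0 in wild type, 239 ± 71.8 in the stathmin knock-out and 248 ± 45.1 in the double knock-out. Replicates 5 and 6 of the p27 knock-out, on slides 2 and 3, were at 50.7 and 19.4. The mean correlation of an array's log2 ratios with the 23 others, across genes, was 0.558 and 0.21 for this pair and lay between 0.770 and 0.859 for each of the 22 further arrays. Markers of double-positive thymocytes had a median log2 ratio of 5.48 ± 0.53 in wild type (SD over 6 mice), 5.28 ± 0.58 in the stathmin knock-out and 5.28 ± 0.16 in the double knock-out. In the p27 knock-out they were between 6.01 and 6.56 in 5 mice and at 0.02 in replicate 6, so that library went against its tissue label. Values without these 2 dim arrays are therefore given for the counts, the lists and many of the genes.

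The 95% interval of the interaction included 0 on each probe of both target genes. Stmn1 on probe A_52_P319161, which separates the genotypes with and without stathmin, had a lowest, median and highest log2 ratio of 2.69, 3.20 and 3.34 in wild type and 0.79, 2.70 and 3.22 in the p27 knock-out. It was at -3.65, -3.18 and -1.87 in the stathmin knock-out and -3.80, -3.12 and -2.84 in the double knock-out. The genotypes without stathmin lay below both others with no overlap and overlapped each other. Here the interaction was 0.41 ± 0.44 (SE, 95% interval -0.53 to 1.34), and the slides gave -1.22 to 2.65, with 3 of 6 above 0 (exact two-sided sign-flip permutation p = 0.594 over 6 slides, smallest possible 0.0312). Without the 2 dim arrays it was -0.10.

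A second Stmn1 probe, A_51_P495641, kept signal in the stathmin knock-out and stands for the gene in the counts as the brightest. Its interaction was 0.60 ± 0.72 (limma adjusted p = 0.628) and rested on p27 knock-out replicate 6, at -0.76 against 3.20 to 4.09 in the other 5 mice. Without the 2 dim arrays it was -0.22, and the probe was saturated on 3 arrays. It was lower in both genotypes without stathmin, at 1.72 to 2.29 in the stathmin and 1.22 to 2.87 in the double knock-out against 3.22 to 3.87 in wild type, with no overlap, but far less so than on the first probe.

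Cdkn1b on probe A_51_P146126 had a lowest, median and highest log2 ratio of 1.37, 1.85 and 2.19 in wild type (n = 5) and 1.21, 1.58 and 2.30 in the stathmin knock-out (n = 6). It was at -0.66, 0.37 and 0.98 in the p27 knock-out (n = 6) and -1.41, -0.62 and 0.97 in the double knock-out (n = 5). Both genotypes without p27 lay below both genotypes with it, with no overlap, and overlapped each other. The interaction, adjusted for slide, was -0.59 ± 0.67 (SE; limma adjusted p = 0.611), below 0 on 4 of 5 slides (exact two-sided sign-flip permutation p = 0.312 over 5 slides, smallest possible 0.0625). The spots of wild-type and double knock-out replicate 1 were marked as outliers and left out. A probe with 10 spots, A_51_P169173, had signal well above background in 6 wild-type mice, 5 stathmin, 1 p27 and 0 double knock-out mice, and wild type was at least 1.76-fold above the double knock-out there. Both genotypes without p27 lay near background on it, so its interaction says nothing of additivity. Another Cdkn1b probe, A_52_P673863, also had signal close to background. Its interaction had the opposite sign to that of A_51_P146126, at 0.42 ± 0.31 (SE), and 0.57 without the dim arrays.

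**Figure D1:**
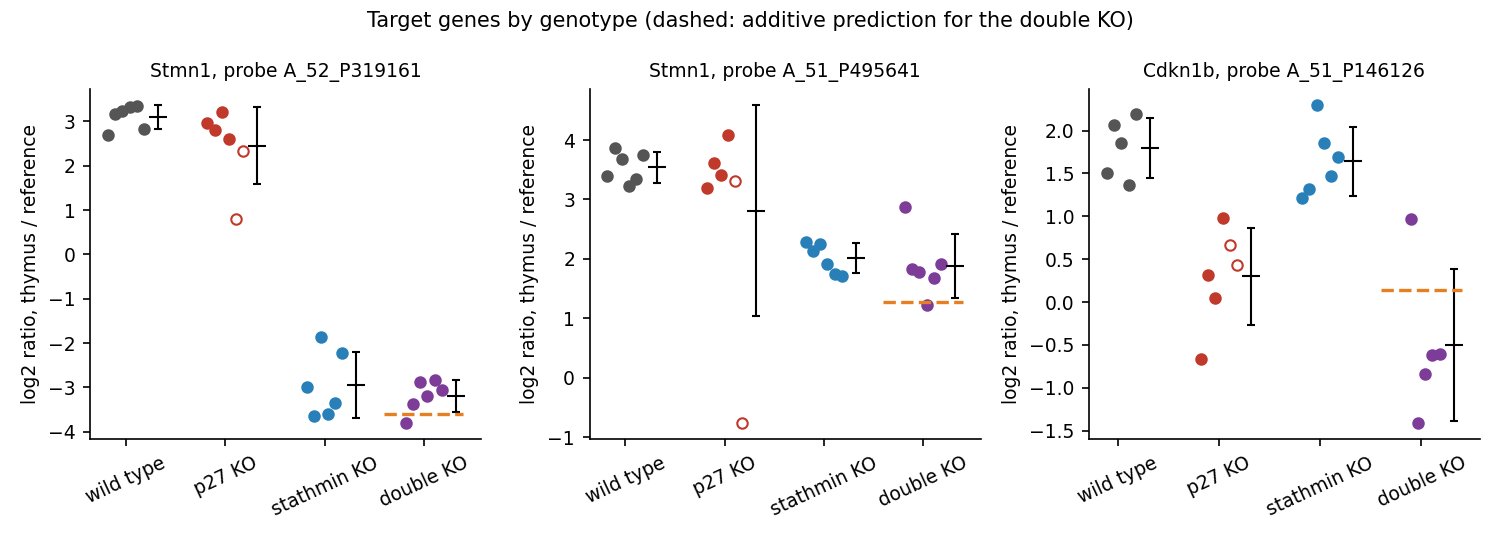
Log2 ratio of thymus to fibroblast pool on 3 probes of the target genes, by genotype. Each point is 1 mouse, open points are the 2 dim p27 knock-out arrays, the bar gives the mean and SD, and the dashed line is the level that adding both single losses predicts for the double knock-out. The double knock-out values lie on both sides of that line on each probe.

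Across the array, stathmin loss was called in 7941 genes where p27 was absent and in none where it was present, with each gene read by its brightest probe, yet the test of that difference called no gene. For the interaction, limma with slide as a block called 0 of 24784 genes higher and 0 lower (0% called), and the lowest adjusted p was 0.229. An unadjusted p under 0.05 was reached by 4985 genes (20.1% of those tested), 1529 of them higher (6.17%) and 3456 lower (13.9%). Without the 2 dim arrays the count was again 0, the lowest adjusted p 0.394, and 3118 genes (12.6%) had an unadjusted p under 0.05. Of these, 2216 were among the 4985 with the same sign, 44.5% of the larger and 71.1% of the smaller set. With the brightness of each array as a covariate, 110 genes were higher and 151 lower at an unadjusted p under 0.05. The split between higher and lower moved with the scaling, to 1994 and 2479 genes for Cy5 alone and to 6891 and 28 in the authors' deposited table, where the median over all genes was 0.49 in place of -0.16.

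The double knock-out against the p27 knock-out, the effect of stathmin loss without p27, had 2682 genes higher and 5259 lower (32% of genes called, limma adjusted p under 0.05). The stathmin knock-out against wild type, the effect of the same loss with p27 present, had 0 genes called (0%), a lowest adjusted p of 0.163 and 814 genes at an unadjusted p under 0.05. The Stmn1 probe A_52_P319161, which is not the brightest, was called in the fit over all probes, at -6.04 ± 0.31 (SE) with p27 and -5.64 ± 0.31 without it. The larger count was 4690 without the 2 dim arrays, 4974 and 4916 without double knock-out replicate 3 or 6, 13516 in the authors' deposited table (13249 higher and 267 lower) and 0 with the brightness covariate. In the other direction, p27 loss with stathmin present had 0 genes called (0%; lowest adjusted p 0.0636, and 7847 at an unadjusted p under 0.05). Leaving out wild-type replicate 4 raised that count to 3399, and leaving out p27 knock-out replicate 1 or 4 to 1907 or 2248. Array weights called 4366 genes, 3278 higher and 1088 lower. The balance was the opposite in the authors' deposited table, where 11 genes were higher and 8413 lower (8424 called). p27 loss without stathmin had 1 gene called (0.00403%), and the count was 0 in 19 of the 24 fits that left out 1 array. The double knock-out against wild type had 0 called (0%; lowest adjusted p 0.0578, 1370 at an unadjusted p under 0.05), and 56 higher and 12 lower without the 2 dim arrays.

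The 1 gene called for p27 loss without stathmin was Klra10, a Ly49 receptor of natural killer cells from the same chromosome as Cdkn1b. Wild type had a mean of 3.35 ± 0.62 (log2 ratio; SD, n = 6), against 0.53 ± 0.40 in the p27 knock-out, 4.27 ± 0.94 in the stathmin knock-out and 1.09 ± 1.17 in the double knock-out. The fall was -2.82 with stathmin (limma adjusted p = 0.0636) and -3.17 without it (adjusted p = 0.0416), and the interaction was -0.35 ± 0.65 (SE; 95% interval -1.71 to 1.01, adjusted p = 0.768), which leaves room for changes of over 2-fold either way. Its neighbour in the family, Klra9, gave 0.56 ± 0.57 (adjusted p = 0.560). Both were singled out after their values were seen, and near-identical Ly49 genes may share a probe.

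The interaction was not estimated closely enough for most genes to bound it tightly. The median standard error over genes was 0.395 on the log2 scale, and the median 95% interval reached 0.829 to either side, a 1.78-fold change. The interval lay within a 2-fold change either way for 7339 genes (29.6%) on all arrays and for 12918 (52.1%) without the 2 dim arrays. The median interaction was -0.16, with 40.1% of genes above 0 and the 5th and 95th percentiles at -1.48 and 1.01.

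The p27 knock-out was the genotype that stood apart. Its mean was the farthest of the 4 from the others in 17219 of 24784 genes (69.5%), and in 93.0% of the genes with an unadjusted interaction p under 0.05. Without the 2 dim arrays these shares were 58.3% and 84.2%. The spread of changes over genes showed the same order. The SD was 0.647 for p27 loss with stathmin, 0.241 for p27 loss without it, 0.316 for stathmin loss with p27 and 0.865 for stathmin loss without it, on the log2 scale. Without the 2 dim arrays, it was 0.402 for p27 loss with stathmin and 0.64 for stathmin loss without p27. The p27 knock-out also had the lowest mean brightness, although wild-type replicate 4, at 56.3 kilo-units, was dimmer than 4 of its 6 arrays, and how far brightness sets these values was not tested beyond the fits without the 2 dim arrays and with the brightness covariate.

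The slides differed in the size of the interaction. Its SD over genes was 0.844, 1.47, 2.42, 0.783, 0.744 and 0.833 on slides 1 to 6, widest on slides 2 and 3, which hold the dim arrays. The same difference of differences taken of log2 Cy5 brightness was 0.41, 2.22, 4.30, -0.62, 0.76 and 0.88. Slide 4, with the only negative brightness value, was also the only slide with a median interaction above 0, at 0.0469 against -0.355 to -0.0985. Across genes, correlations between slides ran from -0.476 to 0.547. The interaction had the same sign on 6 of 6 slides in 679 genes above 0 (2.74%) and 1240 below 0 (5%).

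**Figure D2:**
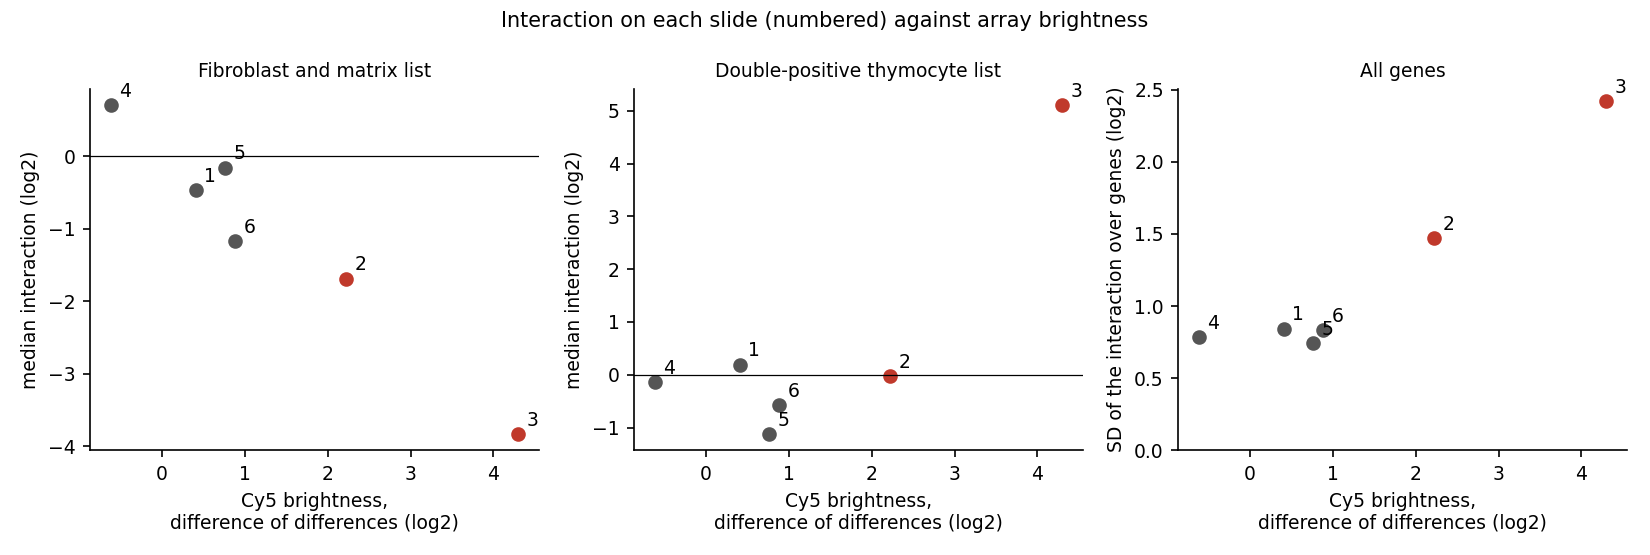
Interaction on each of the 6 numbered slides against the difference of differences in log2 Cy5 brightness, for the median of the fibroblast list, the median of the double-positive thymocyte list and the SD over all genes. Red points are slides 2 and 3 with the dim p27 knock-out arrays. The fibroblast median falls from 0.70 on slide 4 to -3.83 on slide 3, and the thymocyte median is far from 0 on slide 3 alone, at 5.10.

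No gene passed, so 12 higher and 11 lower genes of low unadjusted p, with the same sign on every slide, are described as candidates that failed the correction (limma adjusted p = 0.229 for each, unadjusted p from 0.000322 to 0.00192). They were chosen for these values, which support nothing further. The interaction ran from 1.06 to 2.06 in the 12 higher genes and from -3.01 to -0.75 in the 11 lower ones. The p27 knock-out had the lowest mean of the 4 genotypes in 12 of the 12 higher genes and the highest in 11 of the 11 lower ones. It overlapped another genotype in all 23. Without the 2 dim arrays the values were 0.94 to 1.54 and -2.88 to -0.64. As the rule asked for the same sign on every slide, keeping that sign without those arrays is no sign of stability.

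Among the higher genes, Rps6ka2 encodes a kinase downstream of ERK. Its lowest, median and highest log2 ratio was -1.24, -0.75 and -0.52 in wild type, -2.18, -1.50 and -1.31 in the p27 knock-out, -1.60, -0.77 and -0.36 in the stathmin knock-out and -1.03, -0.68 and -0.17 in the double knock-out. The p27 knock-out lay below wild type and the double knock-out with no overlap. Its interaction was 1.06 ± 0.24 (SE), from 0.13 to 2.29 on single slides. Il12rb2, a subunit of the interleukin-12 receptor that directs T helper and natural killer responses, was at -0.15, 0.68 and 0.96 in wild type, -0.61, -0.30 and 0.25 in the p27 knock-out, 0.03, 0.53 and 1.46 in the stathmin knock-out and 0.87, 1.00 and 1.17 in the double knock-out. The double knock-out values were closely grouped, and only the p27 knock-out lay wholly below them. The interaction was 1.14 ± 0.29. H2-T24, a non-classical MHC class I gene, gave 1.63 ± 0.41, with 0.19 ± 0.37 on its other probe.

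Nefm, the medium neurofilament chain, was at 0.92, 1.44 and 1.91 in wild type, -1.18, 0.41 and 1.00 in the p27 knock-out, 0.95, 2.03 and 2.79 in the stathmin knock-out and 2.07, 2.57 and 3.07 in the double knock-out. Its lowest values were the 2 dim arrays, and the double knock-out lay above wild type and the p27 knock-out with no overlap. The interaction was 2.06 ± 0.51 on all arrays and 1.54 without the dim ones. Kcnk2, a potassium channel, was at -1.28, -0.63 and -0.02 in wild type, -2.25, -1.77 and -1.08 in the p27 knock-out, -0.81, 0.01 and 1.04 in the stathmin knock-out and -0.18, 0.30 and 1.17 in the double knock-out. Its interaction of 1.35 ± 0.35 moved little without the dim arrays, to 1.38. Rapsn, which clusters acetylcholine receptors at the neuromuscular junction, gave 1.47 ± 0.40, and Mpp4, a scaffold protein of photoreceptor synapses, 1.40 ± 0.38.

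Dsc2, a cadherin of desmosomes, gave 1.68 ± 0.46 (SE), with 1.6 ± 0.48 and 2.03 ± 0.57 on its other probes. It was the named gene in which 3 probes gave like values. Clcn3, an endosomal chloride transporter, gave 1.62 ± 0.44 and 1.82 ± 0.80 on a second probe, but 1.00 and 0.62 without the dim arrays. Hlcs, which attaches biotin to carboxylases, gave 1.5 ± 0.39. Thada gave 1.48 ± 0.37 on its brightest probe and -0.26 ± 0.28 on the other. Pard6b, of the cell polarity complex, gave 1.40 ± 0.38, against -0.49 ± 0.26 and 0.44 ± 0.36 on its other probes.

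The largest negative value of the 11 lower genes belonged to Ppbp, a chemokine released by platelets. Its lowest, median and highest log2 ratio was -6.55, -5.32 and -4.79 in wild type, -4.78, -3.06 and -1.85 in the p27 knock-out, -5.43, -4.00 and -1.20 in the stathmin knock-out and -6.11, -4.75 and -2.45 in the double knock-out. The p27 knock-out lay just above wild type with no overlap, and the other genotypes overlapped each of these. Each single loss had a higher mean than wild type, by 2.25 for p27 and 1.82 for stathmin, while the double knock-out was 1.19 below the p27 knock-out on average. The interaction was -3.01 ± 0.68 (SE, 95% interval -4.44 to -1.58), from -4.50 to -1.64 on single slides, and -2.48 without the 2 dim arrays. In the authors' deposited table, which follows the brightness of both channels, it was -0.41.

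Tnfsf8, the CD30 ligand of activated T cells, was at 0.20, 0.44 and 1.12 in wild type, 0.88, 1.64 and 2.47 in the p27 knock-out, -0.02, 0.91 and 1.80 in the stathmin knock-out and -0.46, 0.74 and 0.93 in the double knock-out. The p27 knock-out stood highest, overlapping each other genotype. The interaction was -1.43 ± 0.32, and -1.27 without the dim arrays.

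Mup5 and Mup4, of the major urinary proteins that carry pheromones, moved together. Mup5 was at 0.14, 1.74 and 2.28 in wild type, 1.65, 2.40 and 5.22 in the p27 knock-out, 0.64, 1.75 and 4.11 in the stathmin knock-out and -0.02, 0.23 and 1.33 in the double knock-out. The double knock-out lay below the p27 knock-out with no overlap. The interaction was -2.91 ± 0.72 for Mup5 and -2.54 ± 0.64 for Mup4, and -2.88 and -2.36 without the 2 dim arrays. These genes form a family of near-identical copies, so the probes may read several of them, and Mup4 is also a member of the medullary epithelium list as a self-antigen.

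Rpl39l, a copy of a ribosomal protein gene known from testis, had its lowest values in the double knock-out. It was at -4.57, -4.12 and -3.20 in wild type, -4.36, -3.15 and -2.41 in the p27 knock-out, -6.53, -4.19 and -2.03 in the stathmin knock-out and -6.57, -6.33 and -6.09 in the double knock-out. The double knock-out lay below wild type and the p27 knock-out with no overlap, and 1 stathmin knock-out mouse lay among its values. The interaction was -2.85 ± 0.75, and -0.12 in the authors' deposited table. Cox6b2, another testis form, of a cytochrome c oxidase subunit, gave -1.26 ± 0.35.

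The remaining lower genes were Fat3, an atypical cadherin, at -1.41 ± 0.35 (SE), Nkd2, which restrains Wnt signalling, at -1.48 ± 0.38, and Oog1, an oocyte gene, at -1.51 ± 0.39. Fat3 was left out as an outlier spot on 1 p27 knock-out array and rests on 5 slides. On its 4 other probes it gave -0.73 to -0.25. Nkd2 gave -0.03 ± 0.26 on its other probe, and 0.03 there without the dim arrays. The receptor genes Vmn1r226 (vomeronasal) and Olfr411 (olfactory) gave -0.75 ± 0.20 and -1.23 ± 0.33. Vmn1r226 was well above background on 6 p27 knock-out arrays but on only 2 wild-type, 2 stathmin and 1 double knock-out arrays, so it entered through the genotype where it was high and its value sets that genotype against levels near background.

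**Figure D3:**
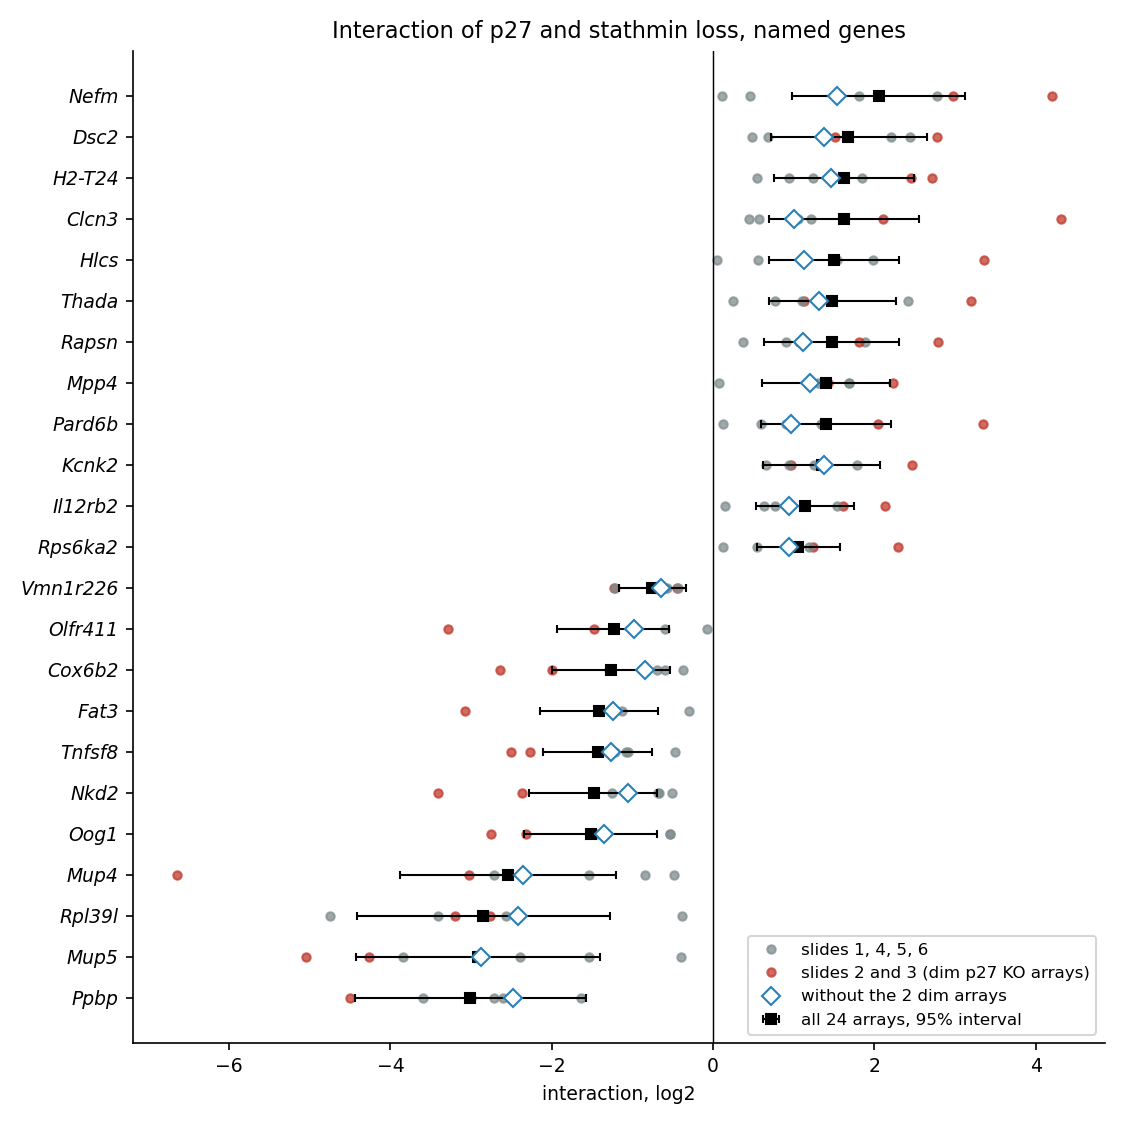
Interaction (log2) of the 12 higher and 11 lower named genes. Black squares are all 24 arrays with 95% intervals, blue diamonds the fit without the 2 dim arrays, grey points slides 1, 4, 5 and 6, and red points slides 2 and 3. Slide 2 or 3 gives the value farthest from 0 in 22 of these genes.

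**Figure D4:**
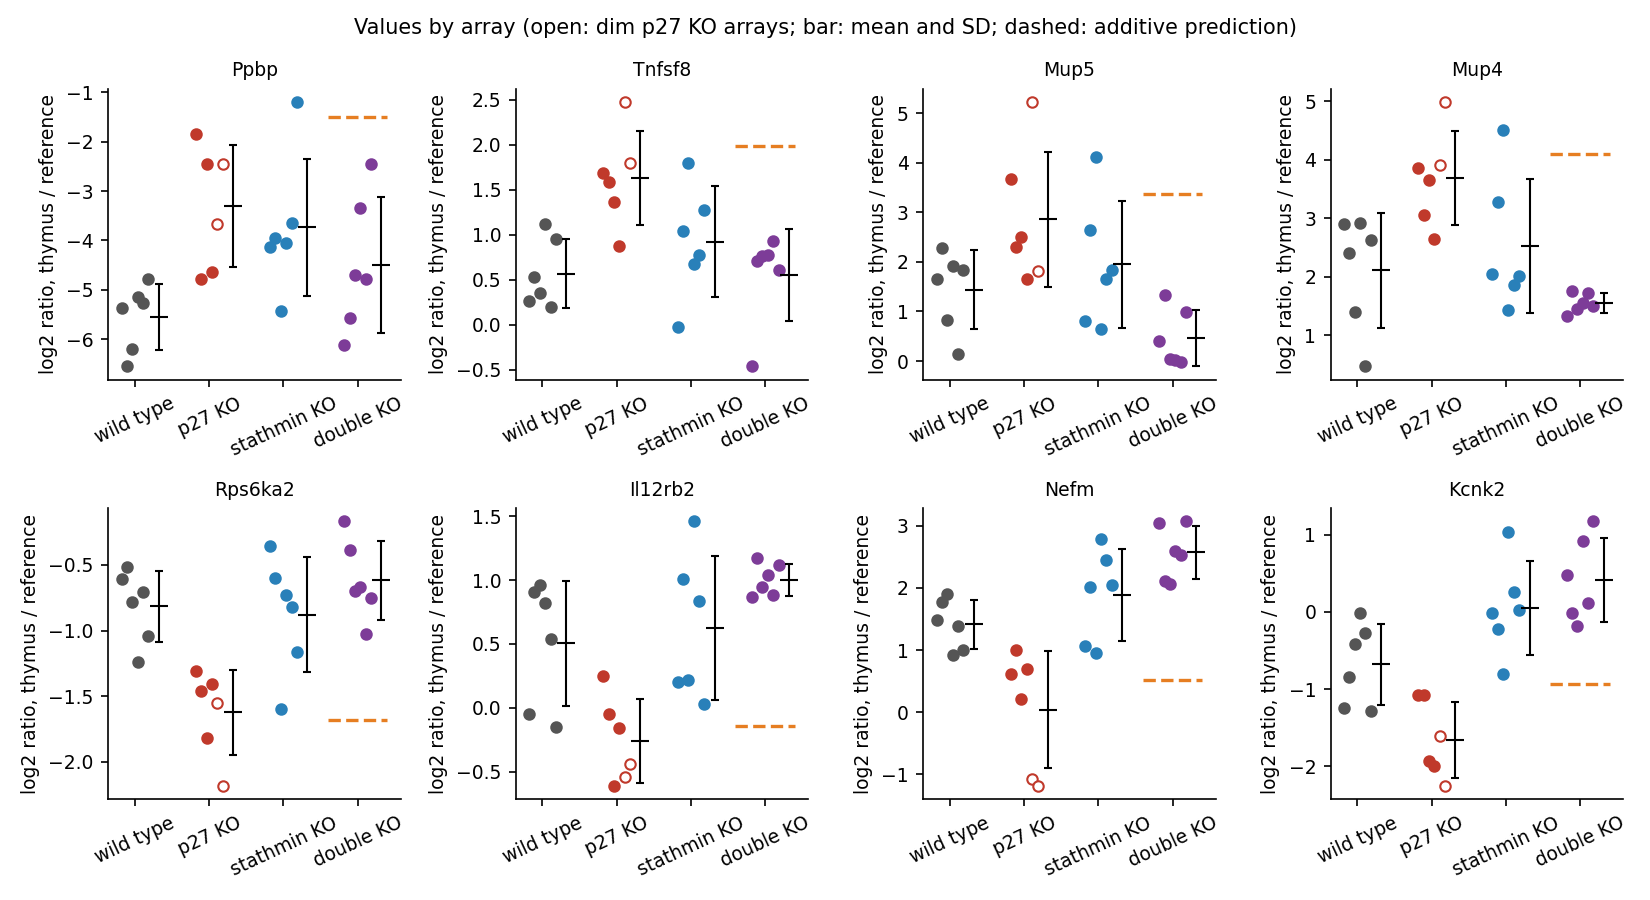
Log2 ratio of thymus to fibroblast pool in each mouse for 8 of the named genes. Open points are the 2 dim p27 knock-out arrays, the bar is the mean and SD, and the dashed line is the additive prediction for the double knock-out. The double knock-out mean lies below the line for Ppbp, Tnfsf8, Mup5 and Mup4 and above it for Rps6ka2, Il12rb2, Nefm and Kcnk2.

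The fit without the 2 dim arrays named 9 further genes by the same rule. Higher were Krt87, a hair keratin, Nol10, a nucleolar protein, Get3, which inserts tail-anchored proteins into membranes, Prrg3 and Tnni1, the slow skeletal troponin I, at 1.43, 1.30, 1.02, 0.92 and 1.19. Krt87 had the narrowest range over slides of these, from 1.01 to 1.62. Lower were Atad4, Slc66a1, a lysosomal amino acid transporter, Nos1ap, an adaptor of neuronal nitric oxide synthase, and Zfp59, a zinc finger protein, at -1.05, -0.73, -1.22 and -1.29. None passed (limma lowest adjusted p 0.394 in that fit). Nol10 was well above background on only 2 p27 knock-out arrays, against 5 wild-type, 4 stathmin and 6 double knock-out arrays. Its value thus sets p27 knock-out levels near background against the others. Atad4 was well above background on 5 wild-type, 6 p27, 3 stathmin and 4 double knock-out arrays.

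Cell cycle genes, which p27 acts on, lay on both sides of 0. Of the 32 genes of G1/S transition and DNA replication, 0 passed, 2 were higher and 2 lower at an unadjusted p under 0.05 (12.5%, against 20.1% of all genes), and the median interaction was 0.09, against -0.16 over all genes. Ccne1, cyclin E1 and the partner of the kinase that p27 holds back, was at -1.14, -0.96 and -0.26 (lowest, median, highest) in wild type, -0.65, -0.29 and 0.44 in the p27 knock-out, -0.99, -0.73 and -0.25 in the stathmin knock-out and -1.05, -0.86 and -0.70 in the double knock-out. The p27 knock-out was highest, overlapping wild type and the stathmin knock-out and, at its lowest, still above the double knock-out. The interaction was -0.84 ± 0.27 (SE; limma adjusted p = 0.229), below 0 on 6 of 6 slides, -0.56 without the dim arrays and 0.43 in the authors' deposited table. Pcna, the sliding clamp of replication, gave 1.29 ± 0.46, above 0 on 5 of 6 slides, and Cdc45, of the replicative helicase, 1.82 ± 0.79. Without the dim arrays the list's median was -0.38, with 24 of 32 below 0. In that fit 1 was higher and 4 lower at an unadjusted p under 0.05, against 3.39% and 9.19% of all genes. Pcna and Cdc45 were then at 0.80 and 0.65.

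The 31 genes of G2/M and mitosis had a median interaction of 0.14 (-0.14 without the dim arrays), and 0 passed. At an unadjusted p under 0.05, 2 were higher and 0 lower (6.45%, against 20.1% of all genes, 6.17% higher). The 2 were Hmmr, a spindle and hyaluronan-binding protein, at 1.33 ± 0.55 (SE), and Ttk, a spindle checkpoint kinase, at 0.99 ± 0.43, both above 0 on 6 of 6 slides. Without the dim arrays they were at 0.99 and 0.45. In that fit 0 members were higher and 0 lower at that p, against 3.39% and 9.19% of all genes.

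Of the 28 cyclin-dependent kinases, inhibitors, G1 cyclins and genes of p27 degradation, 0 passed, and 2 were higher and 4 lower at an unadjusted p under 0.05 (21.4%), with a median of 0.05. Without the dim arrays the median was -0.22, with 19 of 28 below 0. In that fit 1 was higher and 1 lower at that p, against 3.39% and 9.19% of all genes. Cdk2, the main kinase that p27 inhibits, was at -0.75, 1.07 and 2.34 in wild type, -1.27, -0.56 and 0.88 in the p27 knock-out, 0.32, 1.71 and 2.90 in the stathmin knock-out and 1.40, 1.98 and 2.97 in the double knock-out. The double knock-out lay above the p27 knock-out with no overlap and overlapped the other genotypes. The interaction was 1.80 ± 0.65 (limma adjusted p = 0.229), above 0 on 6 of 6 slides, and 1.47 without the dim arrays. Among the other kinase inhibitors, Cdkn2a gave -1.70 ± 0.60, Cdkn2b -1.41 ± 0.61, Cdkn1c, the p57 relative of p27, -1.20 ± 0.57 and Cdkn1a, the p21 relative, -0.74 ± 0.49. Without the dim arrays these were -0.87, -0.60, -0.41 and -0.16, and p27 knock-out replicate 6 had Cdkn2a at 0.40 against -3.25 to -1.34 in the other 5 mice. Skp2 and Cks1b, which mark p27 for degradation, were at 0.12 ± 0.27 and 0.03 ± 0.37.

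Stathmin relatives, tubulins and microtubule regulators had values in both directions. Of 30 genes 0 passed, and 3 were higher and 7 lower at an unadjusted p under 0.05 (33.3%, against 20.1%), with a median interaction of -0.16, equal to that of all genes. Stmn4, a neuronal relative of stathmin, was at -2.31, -1.29 and 0.77 in wild type, 0.25, 0.59 and 5.00 in the p27 knock-out, -3.11, -1.55 and 0.87 in the stathmin knock-out and -2.86, -2.03 and -1.61 in the double knock-out. The p27 knock-out lay above the double knock-out with no overlap. The interaction was -3.16 ± 1.13 (SE), below 0 on 5 of 6 slides, and -2.33 without the dim arrays. Stmn2 and Stmn3, the other relatives, were at -1.43 ± 0.66 and -0.11 ± 0.56. Of the tubulins, Tubb4b gave 1.66 ± 0.58, Tubb3 -1.30 ± 0.50, Tubb6 -1.08 ± 0.46 and Tubb5 -0.03 ± 0.22. Kif2a, a kinesin that takes microtubules apart, gave -2.25 ± 0.85, and Ckap5, which promotes their growth, 1.68 ± 0.72. Without the dim arrays the list's median was -0.07. In that fit 1 member was higher and 3 lower at that p, against 3.39% and 9.19% of all genes. Tubb4b, Tubb3, Kif2a and Ckap5 were then at 1.02, -0.67, -1.16 and 0.64.

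Fibroblast and extracellular matrix genes were the list with the most members on the same side. All 28 had a value below 0, while 40.1% of all genes were above 0, 0 passed and 15 were lower at an unadjusted p under 0.05 (53.6%, against 13.9% of all genes). The median interaction was -1 on the log2 scale. Per array, the list's median log2 ratio ran from -3.78 to -2.32 in wild type, -3.43 to -0.75 in the p27 knock-out, -3.7 to -2.88 in the stathmin knock-out and -4.02 to -3.16 in the double knock-out, so the genotypes overlapped. Collagen genes Col1a1, Col5a2 and Col6a3 gave -1.37 ± 0.58 (SE), -1.34 ± 0.58 and -1.33 ± 0.55. Fn1 (fibronectin) gave -1.30 ± 0.55, the collagen cross-linking enzymes Lox and Loxl1 -1.46 ± 0.59 and -1.47 ± 0.58, and Thbs1 (thrombospondin) -1.71 ± 0.68. Col1a1, Fn1, Lox and Thbs1 were at -0.72, -0.62, -0.72 and -0.92 without the dim arrays. Thy1, which thymocytes also carry, was at -0.01 ± 0.28.

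The list's median was below 0 on every array, since the fibroblast pool in Cy3 held more of these RNAs than thymus, and its interaction differed between slides. On slides 1 to 6 its median was -0.47, -1.69, -3.83, 0.70, -0.16 and -1.17, beside the brightness values given above, and the part of brightness in it was not tested beyond the fits named here. It was -0.50 without the 2 dim arrays, where 27 of 28 were below 0 and 2 were lower at an unadjusted p under 0.05, against 9.19% of all genes in that fit. It was -0.32 on the 4 slides without a dim array, 0.04 with the brightness covariate and 0.24 in the authors' deposited table.

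Thymocyte and antigen presentation lists had medians above 0 in the fit to all arrays, but only slide 3 lay far above 0. The double-positive thymocyte median was above 0 on 2 of 6 slides, T cell receptor signalling on 2 and MHC presentation on 4. Genes of MHC class I and II presentation had 16 of 19 members above 0 and a median interaction of 0.84, with 0 passed and 4 higher at an unadjusted p under 0.05 (21.1%, against 6.17% of all genes). Tap1, a peptide transporter, gave 2.10 ± 0.94 (SE), H2-DMa, which loads class II molecules, 1.71 ± 0.75, and B2m, the class I light chain, 1.27 ± 0.60. The fit without the dim arrays gave 0.58, 0.63 and 0.86. Double-positive thymocyte markers had 16 of 19 above 0 and a median of 0.38, with Cd4 at 2.28 ± 1.10 and Rag1 at 0.23 ± 1.12 (0.49 and -0.77 without the dim arrays). On slide 3, with p27 knock-out replicate 6, the medians were 3.7 and 5.10. Without the 2 dim arrays they were 0.07 and -0.62, and 15 of 19 thymocyte markers were then below 0. In that fit 9 of the 19 thymocyte markers and 2 of the 19 presentation genes were lower at an unadjusted p under 0.05. None was higher, against 9.19% of all genes lower and 3.39% higher. Without p27 knock-out replicate 6 alone the medians of the 2 lists were 0.14 and -0.81. T cell receptor signalling genes went the same way, from 0.16 with 20 of 31 above 0 to -0.26 with 26 of 31 below 0. Without the dim arrays 7 of the 31 were lower and 0 higher at that p.

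**Figure D5:**
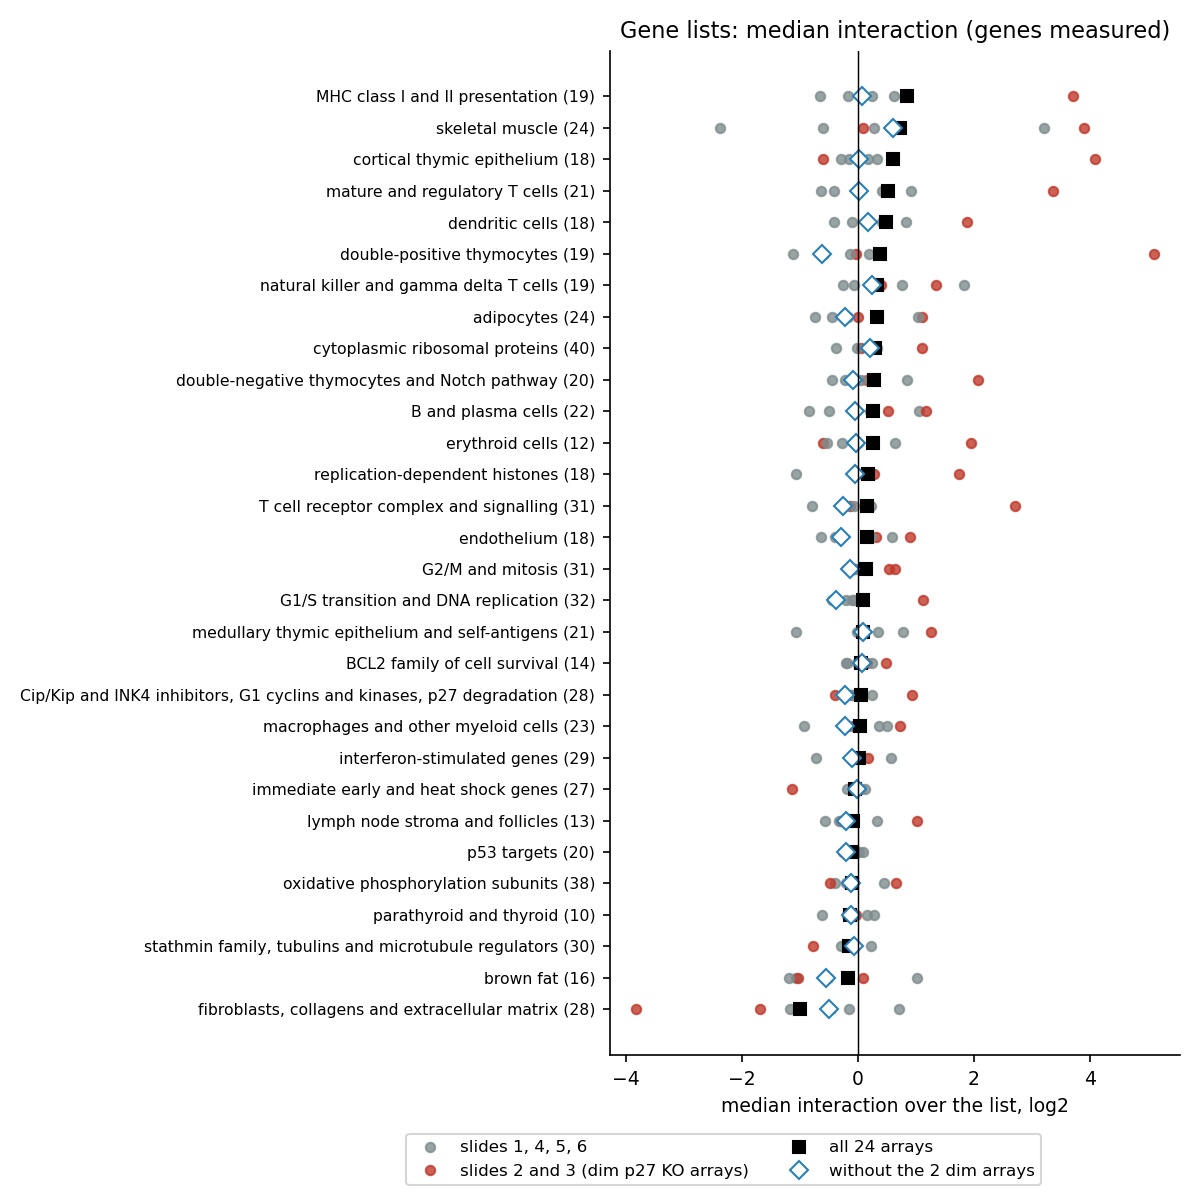
Median interaction (log2) of each of the 30 gene lists, with the number of genes measured. Black squares are all 24 arrays, blue diamonds the fit without the 2 dim arrays, grey points slides 1, 4, 5 and 6, and red points slides 2 and 3. Slide 3 holds the value farthest from 0 in 21 lists, and 16 diamonds lie closer to 0 than the squares.

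Markers of mature T and natural killer cells were mostly above 0. Mature and regulatory T cell genes had a median of 0.52 with 15 of 21 above 0 and 6 below, down to -1.1. Without the dim arrays it was 0.02, with 11 above 0 and 10 below. Natural killer and gamma delta T cell genes had 0.33 with 15 of 19 above 0 and 4 below (0.25 without those arrays). At an unadjusted p under 0.05, 3 of the 21 were higher and 1 lower (19%, against 20.1% of all genes). Of the 19, 4 were higher and 0 lower (21.1%), and 0 members of either list passed. Runx3, a regulator of CD8 T cells, was at -0.39, 0.83 and 1.39 in wild type, -1.39, -0.67 and 0.53 in the p27 knock-out, -0.24, 1.13 and 1.91 in the stathmin knock-out and 1.46, 1.81 and 2.21 in the double knock-out. The double knock-out lay above wild type and the p27 knock-out with no overlap. The interaction was 1.95 ± 0.52 (SE; limma adjusted p = 0.229), above 0 on 5 of 6 slides, and 1.52 without the dim arrays. Cd160, a receptor of natural killer and intraepithelial T cells, gave 1.26 ± 0.38 and 1.22 without them. Ctla4, which restrains T cell activation, gave 1.63 ± 0.59, and Gzmb, a cytotoxic protease, 1.44 ± 0.58, which were 1.25 and 0.79 without the dim arrays.

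Foxn1, the transcription factor that thymic epithelium depends on, was at 0.76, 1.73 and 2.16 in wild type, 0.51, 1.46 and 1.87 in the p27 knock-out, 1.20, 2.05 and 2.56 in the stathmin knock-out and 2.32, 2.63 and 3.41 in the double knock-out. The double knock-out lay above wild type and the p27 knock-out with no overlap. Its interaction was 1.05 ± 0.36 (SE; limma adjusted p = 0.229), above 0 on 6 of 6 slides, and 0.97 without the dim arrays. The cortical epithelium list it belongs to had a median of 0.61 with 13 of 18 above 0 and 5 below. At an unadjusted p under 0.05, 1 member was higher and 0 lower (5.56%, against 20.1% of all genes). Without the dim arrays the median was 0.01 with 9 of 18 above 0. In that fit 1 member was higher and 3 lower at that p, against 3.39% and 9.19% of all genes. Medullary epithelium and self-antigen genes had a median of 0.08, and 0.09 without the dim arrays. On all arrays 11 of its 21 members were above 0 and 10 below. In that fit 1 was higher and 2 lower at an unadjusted p under 0.05 (14.3%, against 20.1% of all genes). Its highest member was Trpm5, a channel of tuft cells, at 1.63 ± 0.55, and its lowest Mup4, at -2.54 ± 0.64.

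The medians of metabolic, stress and other lists ran from -0.11 to 0.29. Oxidative phosphorylation subunits had a median interaction of -0.11 (15 of 38 above 0), with Sdhb, of respiratory complex II, at 1.03 ± 0.39 (SE) on 6 of 6 slides above 0. Cytoplasmic ribosomal proteins had 0.29 (22 of 40 above 0), with Rpl4 at 1.66 ± 0.63. Immediate early and heat shock genes had -0.06, with Junb and Fosl1, both AP-1 subunits, at -1.31 ± 0.43 and -1.84 ± 0.65. They were at -0.93 and -0.95 without the dim arrays, and p27 knock-out replicate 6 had Fosl1 at 0.05 against -3.52 to -1.46 in the other 5 mice. The p53 targets had -0.11, with Pmaip1, a death-promoting BCL2 relative, at -1.24 ± 0.41 (-0.75 without the dim arrays). Interferon-stimulated genes had 0.01, with Irf7 at 1.54 ± 0.54 and Oas3 at 1.18 ± 0.38, and 0.92 and 1.07 without the dim arrays. Survival genes of the BCL2 family had 0.06 (8 of 14 above 0), with Mcl1, which keeps lymphocytes alive, at 0.73. Replication-dependent histones had 0.18 with 14 of 18 above 0, and -0.05 with 7 of 18 without the dim arrays. Double-negative thymocyte and Notch pathway genes had 0.28 with 14 of 20 above 0, and -0.08 with 8 of 20 without them, Nrarp, a Notch target, being at 1.70. Without the dim arrays the medians were -0.12 for oxidative phosphorylation, 0.20 for ribosomal proteins and -0.01 for immediate early and heat shock genes. They were -0.20 for p53 targets, -0.10 for interferon-stimulated genes and 0.07 for the BCL2 family. No member of these lists passed (limma adjusted p of at least 0.229).

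Genes of muscle and fat, which can be cut out with a thymus, varied between mice. Skeletal muscle genes had a median log2 ratio per array of -0.24 to 4.34 in wild type, -0.36 to 2.37 in the p27 knock-out, -0.12 to 3.67 in the stathmin knock-out and -0.08 to 4.76 in the double knock-out. Their median interaction was 0.73 (0.61 without the dim arrays), with slide values of 0.27, 3.89, 0.08, 3.21, -0.60 and -2.37. The highest arrays were double knock-out replicates 2 and 4, wild-type replicate 5, stathmin knock-out replicates 5 and 6 and p27 knock-out replicate 2, at 4.76, 4.65, 4.34, 3.61, 3.67 and 2.37. Adipocyte genes had a median log2 ratio of 1.71 to 3.37 in wild type, -0.11 to 2.88 in the p27 knock-out, 2.95 to 4.60 in the stathmin knock-out and 1.97 to 3.75 in the double knock-out, so that the stathmin knock-out lay above the p27 knock-out with no overlap. Their median interaction was 0.32 with 15 of 24 above 0, and -0.22 with 5 of 24 without the dim arrays. Brown fat genes had -0.17, endothelial genes 0.15, erythroid genes 0.26, lymph node stroma -0.08 and parathyroid and thyroid genes -0.14. Leaving out the dim arrays gave -0.55, -0.30 (15 of 18 below 0), -0.03, -0.21 and -0.12. B and plasma cell, macrophage and dendritic cell lists had 0.26, 0.03 and 0.49, and -0.06, -0.22 and 0.17 without the dim arrays. The part of muscle and fat in the values of single genes was not tested.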

How the data were processed

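Thymus and reference signals were deposited as 1 scanner file per array. Per the file headers, the authors read spot and background intensity with version 9.1.3.1 of Agilent's Feature Extraction, whose log10 ratios were deposited too. A table of log2 values was deposited by the authors as well, all 24 columns used. The sources used here do not say how it was made. Each column followed the channels' mean log2 brightness (correlation of at least 0.9999) and not the log2 ratio (at most 0.067), so its scale is log2, it holds no direction of Cy5 against Cy3, and how it was centred is unknown. The column medians were 9.29, 9.36, 9.33, 8.66, 9.75 and 9.24 in wild type replicates 1 to 6, 8.75, 8.75, 8.90, 9.12, 8.76 and 8.62 in p27 knock-out replicates 1 to 6, 10.56, 9.46, 8.88, 9.10, 9.18 and 9.20 in stathmin knock-out replicates 1 to 6, and 9.40, 9.32, 9.46, 9.17, 9.15 and 9.30 in double knock-out replicates 1 to 6. It is an alternative only. No other columns were left over (0).

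With limma 3.58.1 in R 4.3.3 (data.table, version 1.17.8), intensities were background-corrected (normexp, offset 50) and normalized by loess within each array. Control spots had no weight, spots marked as outliers were dropped (a mean of 68 and a maximum of 314 an array), and spots of a probe were averaged. Of 41174 gene probes, 35185 were well above background in Cy5 on at least 6 arrays (62.8% to 91.1% of spots per array). The brightest probe stood for each of 24784 genes. Symbols came from the gene table of GRCm38.p6 for 22951 probes and from the files for 18223. Of 7754 genes with several probes, 3646 had interactions of both signs. No 2 arrays held identical signals (0 pairs), and the number of arrays limits the precision.

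The interaction and the differences it is made of were tested with limma's moderated test (genotype, slide as a fixed block, Benjamini-Hochberg over all genes, threshold 0.05), in 1 fit to all 24 arrays that pools the spread. The scripts were tested on simulated data. A bound of at least N-fold compares single channels with the lowest signal well above background and is open to dye bias, as no dyes were swapped. Named were the targets, 12 genes each way with the same sign on every slide by lowest p (1 of the lower genes is not reported here), 8 each way without p27 knock-out replicates 5 and 6, and the 2 members of lowest p of each of 30 lists (13 gene groups, 17 cell types). Xist, Tsix, Y-linked, predicted and clone names were left out. Further list members with known roles were named after their values were seen. Members, lists and rules were chosen with earlier results of these data known. Other probes were fitted over all probes.

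Replicate number equals slide number in wild type, stathmin and double knock-out, while p27 knock-out replicates 1 to 6 lay on slides 4, 5, 6, 1, 2 and 3. Deviations from the genotype means correlated by 0.117 on average for arrays of different genotypes on 1 slide (36 pairs, -0.355 to 0.614). For arrays sharing a replicate number the mean was 0.0322. Outside the p27 knock-out, arrays sharing a number also share a slide, so that value cannot show whether the numbers pair anything.

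Alternatives were no background correction, Agilent's log ratios, scaling between arrays, Cy5 alone, the deposited table, no filter or a filter on all 24 arrays, all probes apart, no block, slide as a random block, the replicate number as a block, array weights, the dim arrays left out with or without the slide block, robust variances, a brightness covariate and each array left out in turn. Leaving out slides 2 and 3 was added after seeing the data.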

Additional observations from a re-analysis of the deposited data

Results flagged for a closer look

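In 23 of the 232 groups of 5 or 6 arrays examined (9.91%), 1 array lay far from the rest of its genotype, by its gap to the nearest value over the whole range. Chance gives about 1 in 20. Of the 23, 10 were p27 knock-out replicate 6, the dimmest array. Its Stmn1 log2 ratio on probe A_51_P495641 was -0.76 (others 3.20 to 4.09). Its list medians were 0.02 for double-positive thymocytes (6.01 to 6.56), 0.04 for T cell receptor signalling (4.59 to 5.56), -0.24 for MHC presentation (2.39 to 3.45) and -0.93 for cortical epithelium (2.39 to 2.88). They were -0.58 for G1/S and replication (1.33 to 1.71), -0.03 for G2/M (0.99 to 1.48), -0.87 for histones (0.63 to 1.30), -0.33 for double-negative thymocytes (0.92 to 1.55) and -0.35 for oxidative phosphorylation (0.18 to 0.43).

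The other arrays were scattered over genotypes. In wild type, replicate 4 had the microtubule list at 0.31 (-0.37 to -0.12), replicate 6 the immediate early list at -0.75 (-1.08 to -0.98) and replicate 5 the skeletal muscle list at 4.34 (-0.24 to 0.68). In the p27 knock-out, replicate 4 had Oog1 at 0.92 (1.91 to 2.37) and the microtubule list at -0.14 (0.13 to 0.27), and replicate 2 the skeletal muscle list at 2.37 (-0.36 to 0.34). In the stathmin knock-out, replicate 5 had H2-T24 at 1.77 (0.27 to 0.69), replicate 3 had Pard6b at -0.60 (0.18 to 0.33) and the ribosomal list at 0.36 (0.82 to 1.04), and replicate 1 the natural killer list at 1.51 (2.63 to 2.80). In the double knock-out, replicate 1 had Tnfsf8 at -0.46 (0.61 to 0.93) and the fibroblast list at -4.02 (-3.39 to -3.16), and replicate 3 the natural killer list at 1.55 (2.40 to 2.70).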

How the results depend on the processing

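In each of the 41 alternatives the interaction called 0 genes higher and 0 lower by limma, with a lowest adjusted p from 0.114 to 1. Leaving out 1 array at a time gave 0 to 0 called genes, 885 to 1959 higher and 1977 to 4265 lower genes at an unadjusted p under 0.05, and a median interaction of -0.19 to -0.12. Those counts moved most without wild-type replicate 3 (885 and 1977), wild-type replicate 2 (941 and 2239), p27 knock-out replicate 5 (974 and 2582) and double knock-out replicate 3 (1086 and 2227). The replicate number as a block in place of the slide gave 0 called genes, a lowest adjusted p of 0.239, and 1394 and 3220 genes at an unadjusted p under 0.05. With no block there were 0 called, and 1342 and 3075. The correlation within slides as a random block was 0.0724. Array weights gave the dim arrays 0.109 and 0.0402, against 0.272 to 5.77 for the others, and 0 called genes. Leaving out slides 2 and 3, chosen after seeing the data, left 303 and 569 genes at an unadjusted p under 0.05.

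Of 92 named genes, 71 kept the sign of their interaction in the authors' deposited table. It turned there for Cdkn1b (0.69), Nkd2 (0.21), Oog1 (0.04), Cox6b2 (0.16), Krt87 (-0.32), Slc66a1 (0.28), Ccne1 (0.43), Cdkn2a (0.13), Pmaip1 (0.35), Sesn2 (0.25), Junb (0.23), Fosl1 (0.09), Msr1 (0.41), Ptprb (0.16), Pdgfrb (0.42), Ccn2 (0.18), Dio2 (0.27), Epb42 (-0.16), Enpp2 (0.49), Mfge8 (0.35) and Slc5a5 (0.13). It also turned for Epb42 with Agilent's ratios (-0.12) and for Krt87 (-0.06), Msr1 (0.12) and Epb42 (-0.25) with Cy5 alone. Array weights turned Stmn1 (-0.15) and Acaca (-0.08), and the brightness covariate Stmn1 (-0.47) and Ccn2 (0.05). Stmn1 was at -0.22 without the dim arrays, -0.17 without them and without a block, -0.15 without their slides and -0.13 without p27 knock-out replicate 6, whose low value on that probe sets the sign. Leaving out 1 array at a time gave -0.13 to 0.89 for Stmn1. The median over all genes was 0.49 in the deposited table, against -0.16 in the main fit, so a kept sign above 0 there says little. The cause of the other turns was not tested. The filter on all 24 arrays kept 58 of the 92. Signal over background limits Vmn1r226, which few arrays of some genotypes raised well above background.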
